A study of Mus musculus with 10 samples.

Results

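The genes examined here carry a danger signal from Toll-like receptors to NF-kB and to the mitogen-activated protein (MAP) kinases. They were taken by gene name from the annotation of the array: Toll-like receptors, IRAK, TRAF and IKK proteins, NF-kB and IkB proteins, kinases of the MAP kinase tiers and dual-specificity phosphatases (DUSP), with a short list of named adaptors and co-receptors. The rule found 56 genes on 60 features, out of 6795 named genes and 9596 features on the array, and it used no measured value. A further 4 features bore several symbols, 1 of them of such a gene, and were not used.

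Lipopolysaccharide (LPS), a component of the outer membrane of Gram-negative bacteria, is sensed by Toll-like receptor 4, which recruits the adaptors Myd88 and Ticam1 (TRIF). TRAF proteins and MAP kinase kinase kinases such as Map3k7 (TAK1) then activate the IkB kinases, which release NF-kB dimers from IkB proteins, and the ERK, JNK and p38 MAP kinases. Several NF-kB target genes, among them those of IkB proteins, and several DUSP genes encode inhibitors of the same pathways, and macrophages are the cells in which this feedback has been studied most.

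By role, the genes were 3 receptor genes (Tlr1, Tlr2 and Ly86, the partner of the Toll-like receptor relative RP105), 9 adaptor and TRAF genes (Myd88, Ticam1, Traf1, Traf2, Traf4, Traf5, Traf7, Traf3ip1 and Traf3ip2) and 9 genes of IkB kinases, NF-kB subunits and IkB or IkB-like proteins (Ikbkb, Ikbke, Rela, Relb, Nfkbia, Nfkbib, Nfkbil1, Nfkbiz and Bcl3). The kinases were 11 genes of the upper tiers (Map4k1, Map4k4, Map4k5, Map3k1, Map3k3, Map3k5, Map3k6, Map3k7, Map3k8, Map3k14 and Map3k20), 3 MAP kinase kinases (Map2k1, Map2k4 and Map2k6) and 11 genes of MAP kinases and proteins associated with them (Mapk7, Mapk9, Mapk10, Mapk11, Mapk12, Mapk13, Mapk14, Mapkapk2, Mapkapk5, Mapkap1 and Mapk8ip3). The 10 phosphatase genes were Dusp2, Dusp4, Dusp5, Dusp6, Dusp7, Dusp10, Dusp12, Dusp18, Dusp26 and Dusp28.

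The study set tumour-associated macrophages (TAM) against peritoneal exudate cells (PEC) on 10 spotted cDNA arrays of 2 colours, each of which held total RNA of 2 conditions. All cells were adherent cells in culture from C57/6N mice aged 8 weeks, and LPS, where given, was at 100 ng/mL for 4 hours. Untreated TAM were compared with untreated PEC on 4 arrays (TAM-8, TAM-3, TAM-2R and TAM-b), LPS-treated PEC with untreated PEC on 2 (PEC1 and PEC2), LPS-treated TAM with untreated TAM on 2 (TAM-trial and TAM-16), and LPS-treated TAM with LPS-treated PEC on 2 (TAM1 and TAM7). TAM were harvested 3 weeks after a tumour was implanted, as were the PEC set against them, and for PEC1 and PEC2 the labels name no tumour. The tumour is not named in the labels used here, and TAM are defined there by adherence, with no sort by a surface marker. Nothing in the labels says that the arrays of a comparison came from separate animals or cultures, so SDs and p-values measure the spread between arrays only.

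Each value below is a log2 ratio of the 2 conditions on 1 array, so that 1 is a ratio of 2 and 0 is no difference, and it gives no level. The labels name no dyes. The direction taken was channel 2 over channel 1, with TAM-2R and TAM1 turned because the labels give their channels in exchanged order. It is likely and not certain. The basis for reading channel 2 over channel 1 is a list of 40 genes known to respond to LPS, none of them among the 56. The list was chosen with earlier results of these data known. It was read on PEC1 and PEC2 only, so it gives no check on the turning of TAM-2R and TAM1. Of its 29 measured genes, 26 lay above 0 on PEC1 and 27 on PEC2, with a pooled median of 2.26, while 52.2% and 48.3% of all genes and unnamed features did. Array medians lay between -0.20 and 0.07. Over all features, arrays of 1 comparison correlated at 0.04 to 0.33. Array coordinates were not used, and the remainder of a feature's number divided by 96 was taken as its position. This remainder accounted for 4.4% to 49.1% of an array's variance, where 0.99% is the value for no effect. Over the 56 genes the correlation was 0.68 between PEC1 and PEC2, 0.14 between TAM-trial and TAM-16, 0.11 between TAM1 and TAM7, and from -0.36 to 0.32 among the 4 untreated arrays. Points of such a correlation share their array and its print.

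**Figure D1:**
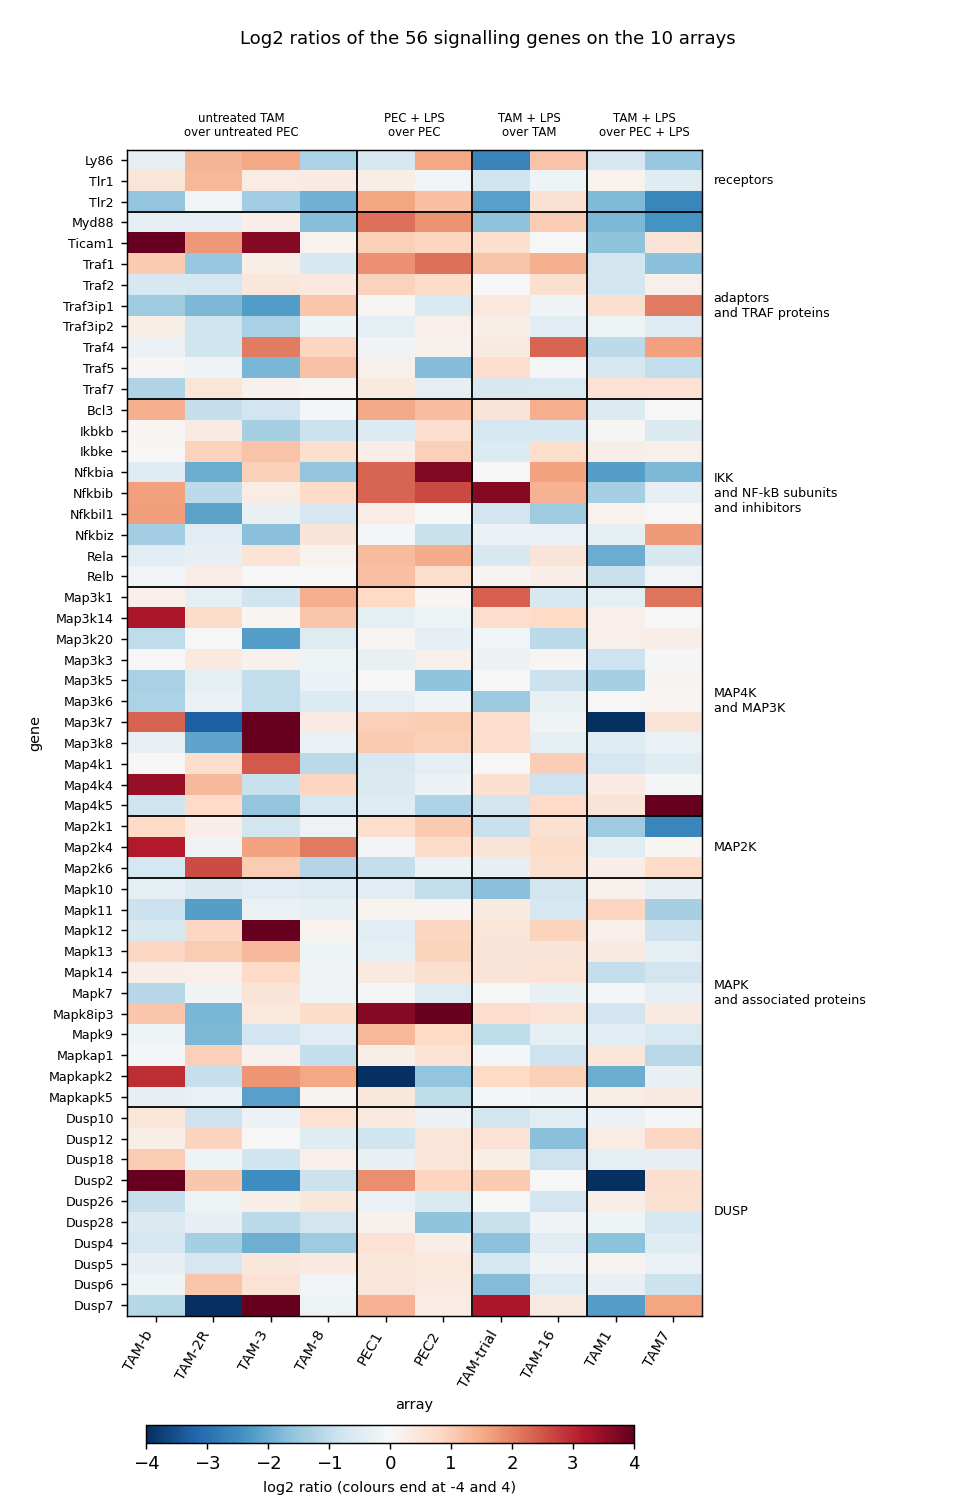
Log2 ratio of each of the 56 signalling genes (rows, grouped by role) on each of the 10 arrays (columns, grouped by comparison), as a colour scale. Nfkbia and Myd88 lie above 0 on both arrays of LPS-treated over untreated PEC and, with TAM1 turned, below 0 on both arrays of LPS-treated TAM over LPS-treated PEC.

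In PEC treated with LPS, the JNK scaffold gene Mapk8ip3 lay furthest above untreated PEC, at a mean ratio of 21.7, followed by 2 IkB genes and 2 adaptor genes. Nfkbia, Nfkbib, Traf1 and Myd88 were at mean ratios of 8.03, 5.58, 4.02 and 4.01, each above 1 on the log2 scale on both arrays. Of the 56 genes, 8 (14.3%) were above 1 on both, against 5.95% of all tested, and 1 (1.79%) was below -1 on both, against 0.449%. None of these differences passed the test across the whole array, limma with Benjamini-Hochberg adjustment over 8905 genes and unnamed features. By that test 0 of the 56 genes passed, against 0.0112% of all tested (1 of 8905), and at an unadjusted p under 0.05 the counts were 10 of 56 (17.9%) against 8.14% of all tested. Without regard to the test, 26 of the 56 (46.4%) lay above 0 on both arrays, against 31.4% of all tested, and 12 (21.4%) lay below 0 on both, against 32.5%. The median of the 56 means was 0.18, and that of all tested was -0.04.

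Tlr2, the receptor for bacterial lipoproteins, had log2 ratios of 1.56 on PEC1 and 1.19 on PEC2. Both arrays thus put Tlr2 higher in LPS-treated PEC. The mean was 1.38 ± 0.26 (SD, n = 2 arrays; adjusted p = 0.64). Tlr1, which pairs with Tlr2, was at 0.26 and -0.12, and Ly86 was at -0.65 and 1.54, so neither had the same sign on both.

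Among the adaptors, Myd88, used by nearly all Toll-like receptors, was at 2.21 on PEC1 and 1.79 on PEC2. Its mean was 2.002 ± 0.294 (adjusted p = 0.45). Traf1, a TRAF protein whose gene is a known NF-kB target, was at 1.83 and 2.19, with a mean of 2.01 ± 0.26 (adjusted p = 0.43). Both genes were thus well above 0 on each array, with SDs far smaller than their means. Ticam1, the adaptor of the Toll-like receptor pathway to interferon, was at 0.95 and 0.85, and Traf2, an adaptor of the tumour necrosis factor receptors, was at 0.92 and 0.74. The other 5 adaptor genes, all of them with values on both sides of 0, had means between -0.76 and 0.01.

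The NF-kB group had the largest share of genes above 0 on both arrays among the 7 roles. Of its 9 genes 7 were above 0 on both arrays, with a group median of 0.96, and 5 had an unadjusted p under 0.05. Nfkbia, which encodes IkB-alpha, the inhibitor that is degraded and made anew in each round of NF-kB activation, was at 2.32 on PEC1 and 3.70 on PEC2 (mean 3.01 ± 0.98, adjusted p = 0.30). Nfkbib, which encodes IkB-beta, was at 2.33 and 2.63 (mean 2.48 ± 0.21, adjusted p = 0.41). Bcl3, a nuclear IkB protein, was at 1.53 and 1.24 (mean 1.38 ± 0.21, adjusted p = 0.56). All 3 genes of IkB proteins were at ratios above 2 on both arrays. The transcription factor subunit genes followed at smaller ratios. Rela, the p65 subunit, was at 1.26 and 1.48 (mean 1.37 ± 0.16, adjusted p = 0.45), and Relb, the subunit of the alternative NF-kB pathway, was at 1.22 and 0.71 (mean 0.96 ± 0.36, adjusted p = 0.53). Ikbkb, the kinase that marks IkB proteins for degradation, was at -0.56 and 0.68, which is no common sign. Nfkbiz, a nuclear IkB protein, was the one gene of the group below 0 on both, at -0.07 and -0.88.

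The promoters of Tlr2, Nfkbia and Bcl3 are shown because these genes were each above a log2 ratio of 1 on both PEC arrays and their windows hold a match to kappaB, the motif that NF-kB binds. The windows reach from 250 bases before the annotated start of transcription to 50 after it (RefSeq, GRCm38.p6), are written 5′ to 3′ on the gene's strand, which is the minus strand for all 3, and have the kappaB matches in capitals. The windows are chr3:83841559-83841858 for Tlr2, chr12:55492598-55492897 for Nfkbia and chr7:19822706-19823005 for Bcl3.
Tlr2: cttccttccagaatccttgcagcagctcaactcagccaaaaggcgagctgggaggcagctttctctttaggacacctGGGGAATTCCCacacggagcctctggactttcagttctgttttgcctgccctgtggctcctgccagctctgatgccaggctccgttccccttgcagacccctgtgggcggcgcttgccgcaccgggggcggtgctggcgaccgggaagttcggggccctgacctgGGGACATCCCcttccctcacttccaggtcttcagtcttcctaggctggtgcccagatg
Nfkbia: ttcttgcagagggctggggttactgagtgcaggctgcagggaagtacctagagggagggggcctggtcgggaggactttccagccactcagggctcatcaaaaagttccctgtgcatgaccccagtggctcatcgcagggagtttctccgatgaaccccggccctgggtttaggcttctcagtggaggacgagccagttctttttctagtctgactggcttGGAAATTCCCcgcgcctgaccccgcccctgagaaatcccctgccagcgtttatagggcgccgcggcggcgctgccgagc
Bcl3: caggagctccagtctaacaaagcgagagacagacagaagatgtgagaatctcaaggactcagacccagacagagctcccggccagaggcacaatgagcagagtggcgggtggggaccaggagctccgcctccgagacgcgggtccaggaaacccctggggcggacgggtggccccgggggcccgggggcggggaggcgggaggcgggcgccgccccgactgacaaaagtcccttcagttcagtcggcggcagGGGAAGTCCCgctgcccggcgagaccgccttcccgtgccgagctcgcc

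The Tlr2 window has 3 matches, which begin at -173, -172 and -8 from the start and of which the first 2 overlap. The Nfkbia window has 1 at -29, and the Bcl3 window 1 at 2, just past the start. RefSeq windows were found for 48 of the 56 genes, and 7 of the 48 (14.6%) held the motif in either strand: Bcl3, Map3k7, Map4k1, Mapk7, Mapkap1, Nfkbia and Tlr2. Among all 27025 genes with a window, 9.55% held it. No match was found in the windows of Myd88, Nfkbib, Rela, Traf1 or Mapk8ip3, the other genes above 1 on both PEC arrays. The motif of the AP-1 factors, TGANTCA on either strand, was in the windows of 2 of the 48 genes (4.2%), Ikbke and Map2k6, against 8.97% of all genes. A match is a run of letters and no evidence of binding.

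Of the 11 MAP4K and MAP3K genes, 6 were below 0 on both PEC arrays and 3 above, with a median of -0.26, and kinases of each tier lay on both sides of 0. The 3 above were Map3k1, Map3k7 and Map3k8. Map3k8, the TPL2 kinase that links NF-kB to ERK in LPS-treated macrophages, was at 1.03 and 0.96 (mean 0.99 ± 0.05, adjusted p = 0.98). The adjusted p was high in spite of the small SD because the fit's standard error, 1.39, takes in the spread of Map3k8 on all 10 arrays. Among the lowest genes of the comparison were Map4k5, at -0.50 and -1.22, and Map3k5 (ASK1, a stress-activated kinase), at -0.03 and -1.62. Map2k1 (MEK1), the kinase that activates ERK, was at 0.69 and 1.05. Map2k6, which activates p38, was at -0.96 and -0.24, and Map2k4, which activates JNK, was at -0.11 and 0.77. The 3 MAP kinase kinases therefore had no common direction.

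At the tier of the MAP kinases, 1 scaffold and 1 downstream kinase lay apart from the rest. Mapk8ip3 (JIP3), a scaffold for JNK, was at 3.64 on PEC1 and 5.24 on PEC2, the highest of all 56 genes on both arrays. Its mean was 4.44 ± 1.13, a ratio of 21.7 (adjusted p = 0.16). Of 20 alternative settings 4 brought it past the threshold, and its adjusted p over all 20 lay between 0.030 and 0.70. Of these settings 2 left out 1 array: without TAM-2R the adjusted p was 0.04348, and without PEC1 it was 0.04963. The value without PEC1 is that of PEC2 alone, assumed to vary like the other comparisons, and 85 of 8905 genes and features passed there. Mapkapk2 (MK2), the p38 target that stabilises cytokine mRNAs, was at -5.29 and -1.57 (mean -3.43 ± 2.64, adjusted p = 0.41), the lowest on PEC1 by far. Mapk9 (JNK2) was at 1.32 and 0.80, and Mapk14 (p38-alpha), the main p38 kinase of macrophages, was at 0.40 and 0.63. Mapk10 (JNK3) was at -0.44 and -0.999. Mapkapk5, for which the array had 2 features, had feature means of 0.96 and -1.53, and the average of -0.29 is close to neither.

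Of the 10 phosphatase genes, 5 were above 0 on both PEC arrays and 1 below, with a median of 0.26. Dusp2, an LPS-inducible phosphatase of haematopoietic cells, was at 1.85 and 0.85 (mean 1.35 ± 0.71, adjusted p = 0.98). Dusp6, which acts on ERK, was at 0.50 and 0.39, Dusp5, also specific to ERK, was at 0.48 and 0.42, and Dusp4 was at 0.59 and 0.28. The ratios of these 3 were small but positive on both arrays. Dusp7 was at 1.40 and 0.29, and Dusp26 was below 0 on both.

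**Figure D2:**
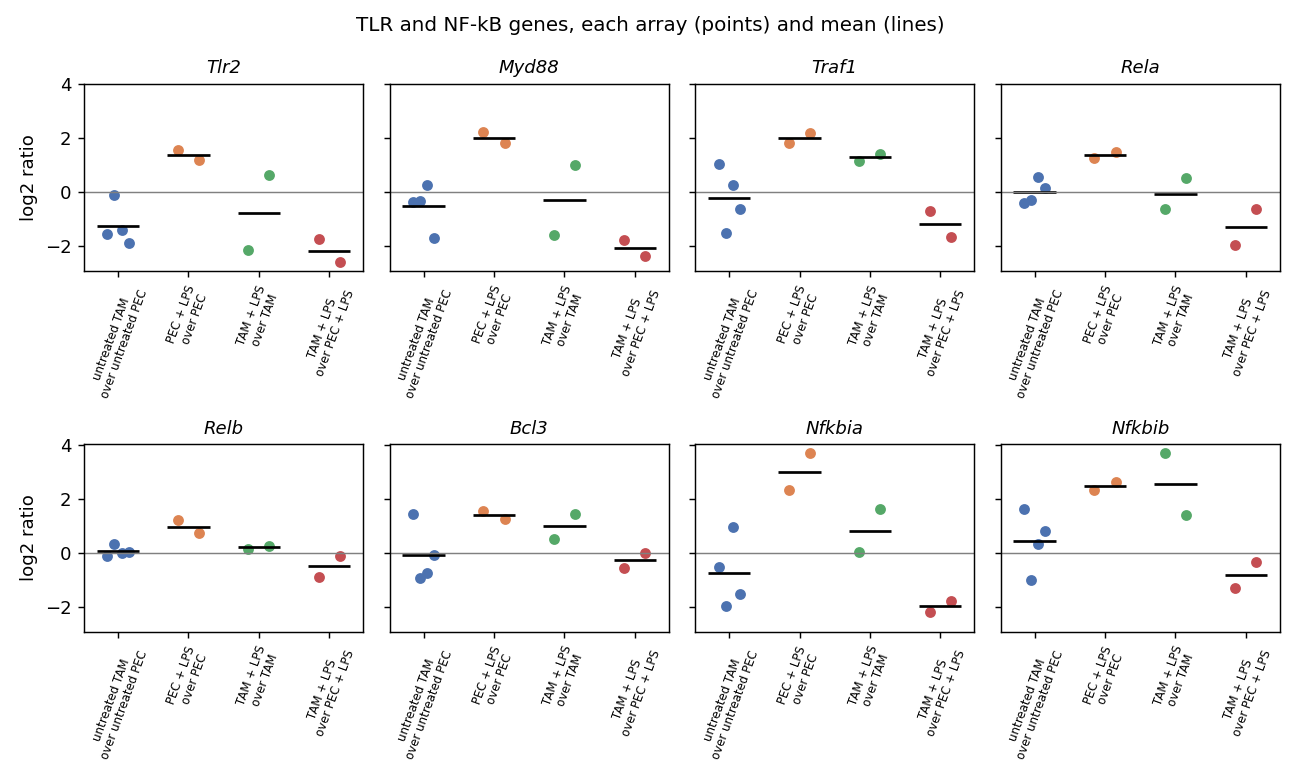
Log2 ratio on each array (points) with the mean over the arrays (lines) for signalling genes of the receptor, adaptor and NF-kB groups, in the 4 direct comparisons. The LPS-treated PEC arrays lie above 0 for Tlr2, Myd88 and Nfkbia, and the arrays of LPS-treated TAM over LPS-treated PEC, with TAM1 turned, lie below 0.

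In TAM, the same treatment gave less uniform values. Nfkbib and Traf1 were above a log2 ratio of 1 on both arrays, while Myd88, Tlr2 and Rela were above 0 on TAM-16 and below it on TAM-trial. Above 1 on both arrays were 2 of the 56 (3.57%), against 1.06% of all tested, and below -1 on both were 0, against 2.0%. The test called 0 of the 56 genes, against 0% of all tested (0 of 8905), and at an unadjusted p under 0.05 it was 3 of 56 (5.36%) against 5.58%. Of the 56 genes 17 (30.4%) were above 0 on both arrays, against 22.4% of all tested, and 19 (33.9%) below on both, against 33.7%. The median of TAM-16 was -0.20, and centring both arrays on their medians raised each mean by 0.10. The counts were then 21 above, against 27.6% of all tested, and 14 below, against 27.3%. The 2 arrays were of different prints, v9p2 (TAM-trial) and v3p6 (TAM-16), and the part of the print in their differences was not tested.

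Nfkbib was at 3.68 on TAM-trial and 1.40 on TAM-16 (mean 2.54 ± 1.62, a ratio of 5.81, adjusted p = 0.83). Traf1 was at 1.13 and 1.42 (mean 1.27 ± 0.20, a ratio of 2.42, adjusted p = 0.83). Bcl3 was at 0.50 and 1.45 (mean 0.97 ± 0.67, adjusted p = 0.84). These 3 NF-kB-linked genes were thus above 0 on both arrays of TAM, as they were on both of PEC. Nfkbia was at 0.01 and 1.62 (mean 0.82 ± 1.14, adjusted p = 0.90), so that 1 array showed practically no difference. Relb was at 0.12 and 0.26. Traf4, a TRAF protein with roles outside immune signalling, was at 0.37 and 2.33, the third highest mean of the genes with a common sign.

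Tlr2 was at -2.17 on TAM-trial and 0.62 on TAM-16, Myd88 was at -1.60 and 1.001, and Rela was at -0.64 and 0.52. For each of these the gap between arrays exceeded the mean by far, and the sign of the mean is that of the array with the larger value. All 3 receptor genes had negative means, from -0.78 to -0.48, with Tlr1 alone below 0 on both. Ikbkb was at -0.70 on both arrays. Nfkbil1, an IkB-like protein gene, was at -0.75 and -1.43 (mean -1.09 ± 0.48, adjusted p = 0.86).

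Of the 10 phosphatase genes, 6 were below 0 on both TAM arrays and 2 above, with a median of -0.47. As a group their difference from PEC was not tested. Dusp6 was at -1.72 and -0.52 (mean -1.12 ± 0.85, adjusted p = 0.83), and Dusp4 was at -1.64 and -0.45 (mean -1.04 ± 0.84, adjusted p = 0.83). Dusp5 was at -0.68 and -0.15. Dusp7 was the highest of the group at 3.24 and 0.37, and Dusp2 was at 1.05 and 0.01. Among the MAP kinases, Mapk10 was at -1.67 and -0.73, the lowest mean of the 56 at -1.20 ± 0.66 (adjusted p = 0.83). Mapk9 was at -1.01 and -0.36, while Mapk14 was at 0.52 and 0.53 and Mapkapk2 at 0.79 and 0.94. Mapk8ip3, the highest gene in PEC, was at 0.69 and 0.59 in TAM. Map3k8 was at 0.69 and -0.39. The 2 arrays thus had opposite signs for Map3k8 and nearly equal values for Mapk14.

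Whether the LPS response differed between TAM and PEC was tested as the response of TAM minus that of PEC, in the same fit. The test called 0 of the 56 genes, against 0% of all tested (0 of 8905), and 6 (10.7%) had an unadjusted p under 0.05, against 6.87%. The median difference of the 56 was -0.42, and that of all tested was -0.11. Mapk8ip3 had the lowest difference, -3.80 (standard error 0.99), followed by Myd88 at -2.30 (0.91), Nfkbia at -2.19 (0.999) and Tlr2 at -2.16 (0.94). Their adjusted p values were 0.72, 0.72, 0.73 and 0.72. Without TAM-trial the differences were -1.001 for Myd88, -1.39 for Nfkbia and -0.76 for Tlr2, and without TAM-16 they were -3.60, -2.99 and -3.55. The highest difference was that of Mapkapk2, 4.29 (standard error 1.38, adjusted p = 0.72), which was 2.43 without PEC1. Mapk9 and Dusp6, which like all of these genes but Nfkbia had an unadjusted p under 0.05, differed by -1.74 and -1.57. Nfkbib, with nearly equal means in TAM and PEC, differed by 0.06, and Mapk14 by 0.01. The next highest were Traf4 at 1.34, Traf5 at 1.09 and Map3k14 at 1.02, with standard errors about as large as the differences.

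By role, the median difference was -1.21 for the 3 receptor genes, -0.76 for the 9 NF-kB genes, -0.51 for the phosphatases and -0.50 for the adaptors. It was 0.01 for the MAP kinases and associated proteins, 0.31 for the MAP kinase kinases and 0.31 for the MAP4K and MAP3K genes. Of the 26 genes above 0 on both PEC arrays, 10 were above 0 on both TAM arrays, 6 were below on both and 10 were split. This division was not counted over all tested, so it cannot be called particular to these genes. The 2 LPS comparisons share no condition. A split or a p over the threshold does not show that the responses were alike.

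**Figure D3:**
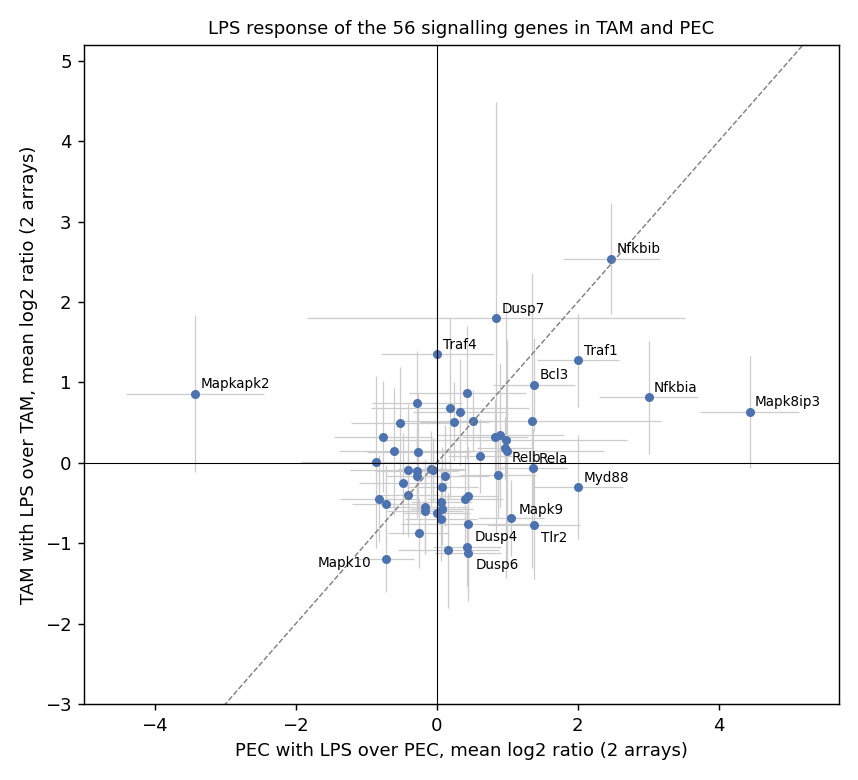
Mean log2 ratio of LPS-treated over untreated TAM (vertical axis) against that of LPS-treated over untreated PEC (horizontal axis) for the 56 genes, with bars of 1 standard error of the fit on each side. Nfkbib lies near the diagonal at 2.54 in TAM and 2.48 in PEC, while Mapk8ip3 lies far below it at 0.64 in TAM and 4.44 in PEC.

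On the arrays that held LPS-treated TAM and LPS-treated PEC, conditions that the LPS comparisons also used, Tlr2, Myd88, Map2k1 and Nfkbia were each below a log2 ratio of -1 on both arrays, at mean ratios of 0.220 to 0.251. These 4 were 7.14% of the 56, close to the 5.06% of all tested that lay below -1 on both. Above 1 on both were 0 of the 56, against 1.63% of all tested. The test called 0 of the 56 genes, against 0.0674% of all tested (6 of 8905), and 6 (10.7%) had an unadjusted p under 0.05, against 8.99%. Of the 56, 11 (19.6%) were above 0 on both arrays, against 32.9% of all tested, and 24 (42.9%) were below on both, against 28.2%. This direction rests on the turning of TAM1: with the array left as deposited the counts were 11 above, against 18.5%, and 10 below, against 20.3%. The median of the 56 was -0.30 and that of all tested 0.08, and the members' median was 0.06 with TAM1 as deposited.

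Tlr2 was at -1.75 on TAM1 and -2.62 on TAM7 (mean -2.18 ± 0.61, adjusted p = 0.35). Myd88 was at -1.79 and -2.39 (mean -2.09 ± 0.42, adjusted p = 0.36). Map2k1 was at -1.41 and -2.61 (mean -2.01 ± 0.85, adjusted p = 0.26). Both arrays thus put the receptor, the adaptor and the ERK-activating kinase lower in LPS-treated TAM than in LPS-treated PEC. With TAM1 as deposited their means were -0.43, -0.30 and -0.60. Nfkbia was at -2.20 and -1.79 (mean -1.995 ± 0.286, adjusted p = 0.42), and at 0.20 with TAM1 as deposited. A fit that used all 4 conditions as a loop with a dye term put Tlr2 past the threshold, at -2.44 (adjusted p = 0.048), as it did 131 of the 8905 genes and features.

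In the NF-kB group, 5 of the 9 genes, Nfkbia among them, were below 0 on both arrays and 2 above. Rela was at -1.98 on TAM1 and -0.63 on TAM7 (mean -1.31 ± 0.96, adjusted p = 0.45), Nfkbib was at -1.32 and -0.33, and Relb was at -0.90 and -0.12. Bcl3 was at -0.56 and -0.01, which is close to no difference on TAM7. With TAM1 as deposited the means of these genes turned positive, at 0.68 for Rela, 0.49 for Nfkbib, 0.39 for Relb and 0.27 for Bcl3. Traf1 was at -0.73 and -1.68 (mean -1.20 ± 0.67, adjusted p = 0.62), and -0.48 with TAM1 as deposited. Ikbke, the IkB kinase relative that drives interferon genes, was at 0.25 and 0.21, and Nfkbil1 at 0.14 and 0.02. Ikbkb, at 0.05 and -0.57, and Nfkbiz, at -0.37 and 1.71, had no common sign.

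Among the kinases, Mapk14 was at -0.94 and -0.74 (mean -0.84 ± 0.14, adjusted p = 0.58), with its 2 features at -0.54 and -1.14. Mapkapk2 was at -1.98 and -0.31, Mapk9 at -0.42 and -0.62, and Map3k8 at -0.47 and -0.28. With TAM1 as deposited the means were 0.10 for Mapk14, 0.84 for Mapkapk2, -0.10 for Mapk9 and 0.10 for Map3k8. Map4k5 had the highest mean, 3.32 ± 3.98 (adjusted p = 0.37), from 0.50 on TAM1 and 6.13 on TAM7. That mean was set by 1 array. Traf3ip1, which encodes a protein of the cilium, was at 0.63 and 2.08, Traf7 at 0.59 and 0.57, and Dusp12 at 0.30 and 0.83, with means of 0.72, -0.01 and 0.27 with TAM1 as deposited. Dusp4 was at -1.63 and -0.47 (mean -1.05 ± 0.82, adjusted p = 0.58), or 0.58 with TAM1 as deposited, and 5 of the 10 phosphatase genes were below 0 on both arrays. Dusp2 was at -6.01 on TAM1 and 0.66 on TAM7, so that the arrays had opposite signs. With TAM1 as deposited both were above 0, with a mean of 3.33.

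**Figure D4:**
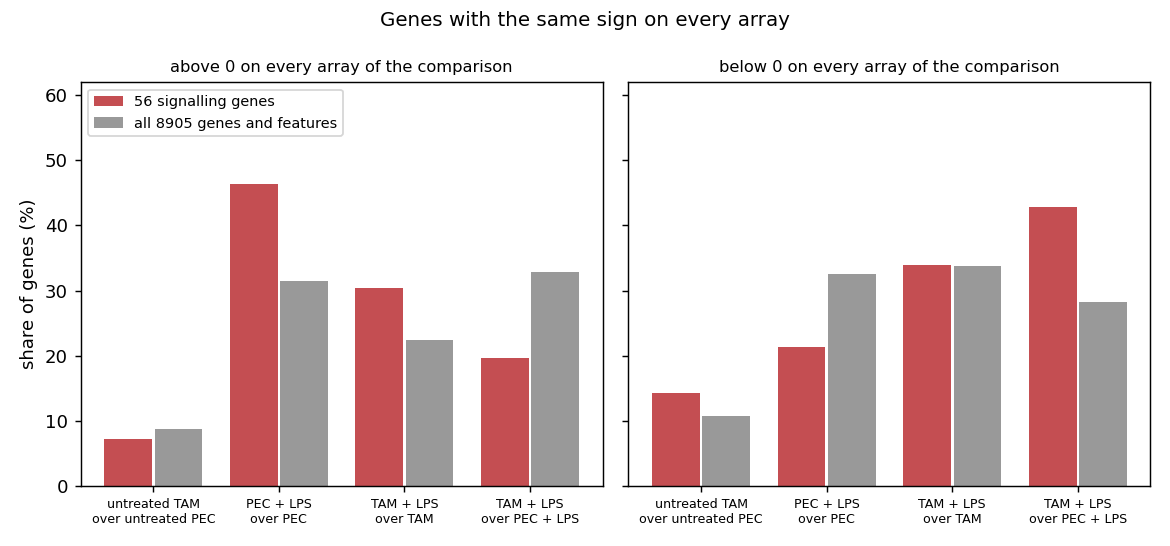
Share of the 56 signalling genes and of all 8905 genes and features tested (percent, vertical axis) that lay above 0, or below 0, on every array of each comparison. In LPS-treated over untreated PEC, 46.4% of the signalling genes and 31.4% of all tested lay above 0 on both arrays, and in LPS-treated TAM over LPS-treated PEC, with TAM1 turned, 42.9% and 28.2% lay below.

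In untreated TAM over untreated PEC, few of these genes had the same sign on all 4 arrays. Among them, Ticam1 and Map3k14 were the highest and Dusp4 and Tlr2 the lowest. The test called 0 of the 56 genes, against 0.46% of all tested (41 of 8905), and 8 (14.3%) had an unadjusted p under 0.05, against 14.3%. On every array 4 (7.14%) were above 0, against 8.77% of all tested, and 8 (14.3%) were below, against 10.8%. With TAM-2R as deposited the counts were 5 above, against 6.34%, and 1 below, against 7.76%. The median of the 56 was -0.01.

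Tlr2 was at -1.57, -0.12, -1.40 and -1.91 on TAM-b, then TAM-2R, TAM-3 and TAM-8. It was thus below 0 on all 4, although only barely on TAM-2R. The mean was -1.25 ± 0.78 (SD, n = 4 arrays; adjusted p = 0.28), a ratio of 0.420, and -1.19 with TAM-2R as deposited. Tlr1 was at 0.49, 1.34, 0.30 and 0.34 (mean 0.62 ± 0.49, adjusted p = 0.38), above 0 on all 4 but at -0.05 with TAM-2R as deposited. Both of its features had positive means, 0.29 and 0.95. Ly86 was at -0.35, 1.36, 1.55 and -1.28, which is an even split.

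Ticam1 was at 4.39, 1.73, 3.66 and 0.14 on the same arrays. Its mean was 2.48 ± 1.92 (adjusted p = 0.16), a ratio of 5.58 with a large spread, and it was 1.62 with TAM-2R as deposited. Myd88, the other adaptor of Toll-like receptor 4, was at -0.36, -0.32, 0.27 and -1.71 (mean -0.53 ± 0.84, adjusted p = 0.60). Traf1 was at 1.04, -1.53, 0.26 and -0.65, with no common sign. In the NF-kB group, Ikbke alone had 1 sign on all arrays, at 0.00, 0.93, 1.14 and 0.64 (mean 0.68 ± 0.50, adjusted p = 0.37), or 0.21 with TAM-2R as deposited. Nfkbia was at -0.53, -1.97, 0.95 and -1.55 (mean -0.78 ± 1.30, adjusted p = 0.49), and 0.21 with TAM-2R as deposited. Rela and Relb had means within 0.05 of 0, at -0.01 ± 0.44 and 0.05 ± 0.18, and Bcl3 was at -0.09 ± 1.08. Ikbkb had a mean of -0.45 ± 0.78, from features at -0.02 and -0.88.

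Map3k14 (NIK), the kinase of the alternative NF-kB pathway, was at 3.24, 0.74, 0.09 and 1.10 (mean 1.29 ± 1.36, adjusted p = 0.26), or 0.92 with TAM-2R as deposited. Dusp4 was at -0.69, -1.32, -1.95 and -1.43 (mean -1.35 ± 0.51, adjusted p = 0.15), a ratio of 0.393, with all 4 arrays below -0.6. With TAM-2R as deposited it was -0.69. Mapk9 was at -0.18, -1.80, -0.76 and -0.41 (mean -0.79 ± 0.72, adjusted p = 0.33), and Mapk11 (p38-beta) at -0.85, -2.19, -0.26 and -0.33 (mean -0.91 ± 0.90, adjusted p = 0.38). With TAM-2R as deposited both turned positive, at 0.11 for Mapk9 and 0.19 for Mapk11. Mapk10 was below 0 by nearly the same amount on each array, from -0.58 to -0.36, with a mean of -0.47 ± 0.09 (adjusted p = 0.46), or -0.18 with TAM-2R as deposited. Mapk14 was at 0.27 ± 0.39 and Mapkapk2 at 1.34 ± 1.63, neither with a common sign.

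With TAM-2R turned, the untreated arrays also held values that went opposite ways by large amounts. In 5 of the 56 genes (8.93%, against 6.96% of all tested), picked after their values were seen, the 4 arrays spanned more than 5 on the log2 scale: Dusp2, Dusp7, Map3k7, Map3k8 and Mapk12. Dusp7 was at -8.46 on TAM-2R and 7.47 on TAM-3, and near 0 on TAM-8 (-0.21). Map3k7 was at -3.25 on TAM-2R and 4.54 on TAM-3, and Map3k8 was at -2.12 and 5.69 on these. For Dusp7, Map3k7 and Map3k8 the opposite signs on TAM-2R and TAM-3 rest on the turning of TAM-2R. As deposited, TAM-2R was at 8.46, 3.25 and 2.12, the sign of TAM-3, and the means were 3.65, 2.62 and 1.81. Dusp2 was at 6.03 on TAM-b and -2.48 on TAM-3. The means of these genes therefore depend on the few arrays with large values. Their standard errors, from 0.79 for Mapk12 to 1.90 for Dusp7, carry into the other comparisons through the shared fit.

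Of 59 other genes of these pathways that the rule did not take in, 39 were measured. In untreated TAM over PEC, 1 rose and 0 fell by limma with Benjamini-Hochberg adjustment over all genes, where 0.46% of all tested passed. The gene that rose was Irf7, the transcription factor of interferon genes downstream of Myd88, at 1.94, 1.83, 2.95 and 2.65 (mean 2.34 ± 0.55, adjusted p = 0.041). The call was lost under 19 of 20 alternatives, among them leaving out any 1 of the 10 arrays, while the value stayed between 1.43 and 2.51. By the same test 0 of the 39 passed in the other comparisons. At an unadjusted p under 0.05 there were 8 of the 39 in LPS-treated PEC, where 8.14% of all 8905 tested were. In LPS-treated TAM there were 2 of the 39, against 5.58% of all tested. There were 9 of the 39 in LPS-treated TAM over LPS-treated PEC, against 8.99%, and 3 in the difference of responses, against 6.87%. In untreated TAM over PEC there were 7 of the 39, against 14.3%. In LPS-treated over untreated PEC, 20 of the 39 were above 0 on both arrays and 5 below (median 0.38), against 31.4% and 32.5% of all tested. Irf7 was at 2.55 ± 0.96 and Gadd45b, a stress gene whose protein binds kinases of the JNK and p38 pathways, at 2.40 ± 0.27. Both were on the list that set the direction. In LPS-treated over untreated TAM, 11 were above and 7 below (median 0.00), against 22.4% and 33.7% of all tested. Tnip1, an inhibitor of NF-kB signalling, was at 1.47 ± 0.37 and Fos, an AP-1 subunit, at -1.19 ± 0.22. In LPS-treated TAM over LPS-treated PEC, with TAM1 turned, 8 were above and 19 below (median -0.32), against 32.9% and 28.2% of all tested. The highest were Creb1, a transcription factor, at 1.81 ± 1.57 (adjusted p = 0.44) and Il1rap, a subunit of the interleukin-1 receptor, at 0.92 ± 0.51. The lowest were Junb, another AP-1 subunit, at -1.87 ± 0.77 (adjusted p = 0.35) and Gadd45b at -1.50 ± 0.72.

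Markers of macrophages lay on the same side as these genes in 2 comparisons. Of 16 listed, 10 were measured. In LPS-treated over untreated PEC 8 were above 0 on both arrays and 0 below, with a median of 1.14. Of all tested, 31.4% were above and 32.5% below. Epithelial and mesothelial markers also had a positive median, 0.43 (2 above 0 on both arrays and 0 below). So did neutrophil markers at 0.40 (5 and 3) and fibroblast and stroma markers at 0.26 (7 and 1). T and NK cell markers were at -0.21 (1 and 3), and B and plasma cell markers at -0.16 (1 and 3). In LPS-treated TAM over LPS-treated PEC 6 of the 10 macrophage markers were below 0 on both and 3 above, with a median of -1.03. Of all tested, 28.2% were below and 32.9% above. In LPS-treated over untreated TAM 4 of the 10 were below and 0 above, with a median of -0.91. Of all tested, 33.7% were below and 22.4% above. In LPS-treated TAM over LPS-treated PEC the medians of the other lists were 0.82 for 5 epithelial and mesothelial markers (4 above 0 on both arrays and 1 below), 0.54 for 10 T and NK cell markers (5 and 1), 0.48 for 12 fibroblast and stroma markers (6 and 3), 0.32 for 10 neutrophil markers (5 and 4) and 0.09 for 5 B and plasma cell markers (2 and 1). In untreated TAM over PEC the median was -0.53 for the macrophage list, although 4 of its markers were above 0 on every array and 2 below (array medians from -0.43 to 0.0). Of all tested, 8.77% were above and 10.8% below. The median was 0.80 for 12 fibroblast and stroma markers (2 and 0, array medians from -0.15 to 1.71). For 10 neutrophil markers it was 0.82 (4 and 0, array medians from -0.15 to 1.46). The part of any of these in the values of the signalling genes was not tested. Ratios give no level, so markers could not show whether the cells were macrophages, and a smaller number of macrophages and less of an mRNA per macrophage cannot be told apart.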

How the data were processed

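Per the labels, total RNA of 2 conditions was hybridised to each of 10 cDNA arrays of 3 print versions. The authors deposited 1 log2 ratio per feature and array. The labels state neither the dyes nor the background correction, normalization or log base. The values were read as base 2, in which the largest, 11.687 in absolute terms, is a ratio of 3297. Dim spots could not be left out, since signal intensities were not used here, and few arrays were made per comparison, which limits the precision.

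Features were named by the platform annotation (7486 with 1 symbol, 483 with several, 1627 with none), and the features of 1 gene were averaged, which gave 8905 genes and features. The ratios of TAM-2R and TAM1 were turned. A limma 3.58.1 fit in R 4.3.3 (lmFit and eBayes) used all 10 arrays, 4 comparison means, 6 residual and 3.841 prior degrees of freedom. Its p-values are two-sided, Benjamini-Hochberg adjusted over 8905, with a threshold of 0.05. The fit was tested on simulated data. SDs are over arrays and standard errors come from the fit. The genes and lists were chosen with earlier results of these data known. Described in each comparison were genes past the threshold, the 4 highest and 4 lowest with 1 sign on every array (for the difference of responses, of all), and 12 measured genes of a panel of 24. Others named in the text were chosen after their values were seen. Promoters came from RefSeq tables (GRCm38.p6) and were searched for kappaB and for TGANTCA on both strands. Alternatives changed the coding of the exchanged arrays, dye and loop terms, scaling, position by feature number, print, features, the variance model and single arrays.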

Additional observations from a re-analysis of the deposited data

How the results depend on the processing

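The count of signalling genes past the threshold was 0 in every comparison, and under 104 of 109 alternatives. It was 1 for LPS-treated against untreated PEC with the exchanged arrays as deposited, with position medians removed, without PEC1 and without TAM-2R (the range without 1 array each was 0 to 1), and the gene was Mapk8ip3 each time (adjusted p = 0.02987, 0.0482, 0.04963 and 0.04348), among 2, 5, 85 and 2 of all 8905 past the threshold. It was 1, Tlr2, for LPS-treated TAM against LPS-treated PEC in the loop fit with a dye term, among 131 of 8905. The cause was not tested. There were 1760 alternative values for 88 named values. Of these, 1636 moved by no more than the main SD or standard error, 119 moved further and 5 passed the threshold. The 5 kept the sign of their main values, while some of the other values changed sign. Many of the 1636 were fixed in advance and are no measure of stability. In the direct fit, neither the variance model nor leaving out arrays of other comparisons can move a mean. Leaving out 1 array of a direct comparison cannot move its mean by more than the SD. Leaving the exchanged arrays as deposited changed the sign of 9 of 17 values for LPS-treated TAM over LPS-treated PEC and 8 of 19 for untreated TAM over PEC. It could change no mean of the LPS responses or their difference, since neither exchanged array belongs to them. The loop fit with a dye term changed 7 of 19 for LPS-treated over untreated TAM. Among all genes, the calls ranged from 0 to 85 for LPS-treated against untreated PEC, from 0 to 137 for LPS-treated TAM against LPS-treated PEC, from 0 to 45 for untreated TAM against PEC, from 0 to 3 for LPS-treated against untreated TAM and from 0 to 47 for the difference. The median of the signalling genes for LPS-treated over untreated TAM was -0.08, and 0.02 with arrays centred. No paired analysis was possible because no 2 comparisons share more than 1 replicate number. With 2 arrays in 3 of the 4 comparisons, a dye effect on a gene stays in the means of both LPS responses, whose arrays had 1 channel order, and genes with features that disagreed are means of both.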
